A study of Homo sapiens with 8 samples.

Results

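The regulators examined here are 10 genes that set epithelial or mesenchymal state, followed across 8 human cancer cell lines. They were chosen by symbol: the repressors ZEB1, ZEB2, SNAI1, SNAI2 and TWIST1, and the epithelial regulators ESRP1, ESRP2, GRHL2, OVOL1 and ELF3. Each of the 10 symbols matched 1 of the 58202 Ensembl identifiers in the files, so no choice among identifiers was needed. RNA had been sequenced in 1 library per line after 48 hours of culture in 6-well plates. Of the 3 lung lines, H522 came from a non-small cell tumour, H661 from a large cell tumour and H146 from a small cell tumour. The endometrial lines were KLE from an adenocarcinoma and HEC59 from a carcinoma. The other tissues had 1 line each, with COV318 from an ovarian serous carcinoma, H716 from a colorectal adenocarcinoma of the cecum and 1321N1 from an astrocytoma. The labels give no treatment or engineered change for any line, each line stands for 1 tumour, and the labels give passages between 3 and 15. The series was designed around response to ibrutinib, a kinase inhibitor, in lines that express ERBB4. No label assigns a line to response or non-response, so that comparison was not made, and tissue was the only label left to compare. Levels are given in FPKM, fragments per length of transcript and per total of mapped fragments, and differences on the log2(FPKM + 1) scale. A gene at an FPKM of 1 or more is called detected. In bulk RNA, fewer cells of a kind and less RNA per cell cannot be told apart. With 1 library a line, a level in a line has no replicate error.

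Epithelial cells hold to each other through E-cadherin and tight junctions, and lose these contacts when they take on a mesenchymal, migratory state. The zinc finger proteins ZEB1, ZEB2, SNAI1 and SNAI2 and the helix-loop-helix protein TWIST1 repress E-cadherin and other epithelial genes, largely through E-boxes in promoters. GRHL2, OVOL1 and ELF3 are transcription factors that maintain epithelial genes, and ESRP1 and ESRP2 are RNA-binding proteins that enforce epithelial splicing of receptors and adhesion proteins. ZEB and GRHL2 proteins repress each other's genes, and ZEB messages are in turn silenced by the microRNAs of the miR-200 family.

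The labelled tissue was checked against marker genes. Of 5 Mullerian markers, PAX8, SOX17 and EMX2 were detected in KLE, HEC59 and COV318 at FPKM between 8.72 and 185, MUC16 was at 8.18 in KLE, 2.97 in HEC59 and 0.111 in COV318, and ESR1 was under 1 in all 8 lines. PAX8 was also detected in 1321N1, at 5.84, and in H522, at 1.68. H146 had 6 of 6 neuroendocrine markers detected, and the cecum line H716 had 5 of 6. Of 5 intestinal markers in H716, the cadherin CDH17 was at 137, CDX2 at 1.31 and VIL1 at 1.07, while LGALS4 was at 0.376 and CDX1 was listed at 0. VIL1 was higher in H146, at 8.74. Of 5 lung epithelium genes, NKX2-1 in H661, at 11.2, was the only one detected in a lung line. Of 5 astroglial genes in the glial line 1321N1, GFAP was the only one detected, at 3.10, its highest level in any line. SLC1A3 was at 0.546, OLIG2 at 0.00771, and S100B and AQP4 were listed at 0. The 5 astroglial genes did not set 1321N1 apart from the other lines. H146 also had GFAP detected, with an FPKM of 1.57. Their mean log2 level of 0.53 for 1321N1 was exceeded by COV318 (1.0), KLE (0.86) and H146 (0.76). H522, H661, HEC59 and H716 lay at 0.14 or under. 1321N1 also had 6 of 6 fibroblast markers detected, the highest count of any line. The summed FPKM of those markers lay between 2.33 in H146 and 506 in H661 in the other 7 lines and was higher still in 1321N1. Of 6 leukocyte markers, the lysozyme gene LYZ in H716, at 11.1, was the only one detected in any line. Relative depth, read from the steps of low values, ranged between 1.0 in KLE and 2.67 in 1321N1. Absolute depth is unknown. All 35 splits of the lines into 2 sets of equal size were compared by the same steps, so the number and size of the sets were imposed. The split with the most sharing within sets had H522, H661, KLE and H716 in the first set. Its second set was 1321N1, HEC59, COV318 and H146. Shared steps averaged 20.3% of low values within sets and 10.9% between them, although single pairs overlapped.

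ZEB1 (ENSG00000148516, chromosome 10) was the most widely expressed repressor, detected in 7 of 8 lines. It reached 22.1 in H522, 5.79 in H661 and 0.367 in H146, against 3.34 in KLE, 14 in HEC59, 15.3 in COV318, 55.7 in H716 and 86.5 in 1321N1. The small cell line H146 was the only line under 1, and the cecum and glial lines stood at the top. ZEB2 (ENSG00000169554, chromosome 2), the paralog of ZEB1, followed another order. It stood at 0.0846 in H522, 101 in H661 and 0 in H146, against 1.87 in KLE, 0.0178 in HEC59, 8.55 in COV318, 0.634 in H716 and 19.7 in 1321N1. H661 therefore held the highest level of any of the 10 genes in any line, although its ZEB1 was among the lower values, and H522 held ZEB1 with almost no ZEB2. Both ZEB genes were detected together in H661, KLE, COV318 and 1321N1, and neither was detected in H146. Pearson's r of ZEB1 with ZEB2 over the 8 lines was 0.15 and Spearman's rho was 0.31.

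Antisense genes lie beside both ZEB genes, and the use of strand in counting, not given in the sources used here, matters for them. ZEB2-AS1 was listed at 9.12 in H661 and 0.599 in 1321N1, the lines with the highest ZEB2, at 0.0639 in COV318 and at 0 in the other 5. ZEB1-AS1 lay between 0.320 in H146 and 6.45 in H716. Reads of a gene and its antisense partner cannot be told apart without strand.

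The mature miR-200 sequences are shown because their seeds, bases 2 to 8 in capitals, pair with the ZEB messages. They come from RefSeq (GRCh38.p14), and they fall into 2 seed groups that differ at a single base.
miR-200b-3p: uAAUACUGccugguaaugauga
miR-200c-3p: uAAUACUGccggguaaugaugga
miR-429: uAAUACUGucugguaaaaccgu
miR-200a-3p: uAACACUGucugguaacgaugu
miR-141-3p: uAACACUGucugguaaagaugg

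The 3′ UTRs of ZEB1 and ZEB2 in GENCODE v29 (GRCh38) were searched on the sense strand for the complements of these seeds, CAGTATT and CAGTGTT, which do not overlap each other. The ZEB1 UTR of 2549 bases held 6 CAGTATT and 3 CAGTGTT, or 3.53 matches per kilobase. The ZEB2 UTR of 5370 bases held 5 CAGTATT and 4 CAGTGTT, or 1.68 per kilobase. Over all 10118 UTRs of 1000 or more bases the rate was 0.26 per kilobase, 27.1% held CAGTATT, 30.6% held CAGTGTT, and 0.0593% held as many matches as the ZEB genes. A match describes the letters and is not a measured site of binding. Examples follow, with the match in capitals and positions counted from the first base of the UTR.
ZEB1, positions 369 to 375: ttttatcttatCAGTATTatca
ZEB1, positions 1313 to 1319: ttcaaacctggCAGTATTaata
ZEB1, positions 1773 to 1779: acttctataaaCAGTGTTggga
ZEB2, positions 455 to 461: ctacaatgcatCAGTATTatga
ZEB2, positions 775 to 781: tgcaccagcttCAGTGTTaagc

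The libraries say little of the microRNAs themselves: the rows of all 5 precursors were listed at 0 in all 8 lines, and mature microRNAs were not measured. The host transcript of MIR200C and MIR141 on chromosome 12 was listed at 2.12 in H146 and 0.217 in HEC59, and at 0 in the other 6 lines. H146 was also the line with the lowest ZEB1 and with ZEB2 at 0. HEC59 had ZEB2 at 0.0178 but ZEB1 at 14.

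SNAI1 (ENSG00000124216, chromosome 20), a labile factor named Snail, was at 4.30 or under in all 8 lines. It stood at 4.30 in H522, 1.70 in H661 and 1.43 in H146, against 1.72 in KLE, 1.83 in HEC59, 2.54 in COV318, 0.210 in H716 and 0.0123 in 1321N1. Of the 8 lines 6 thus lay between 1.43 and 4.30, and the cecum and glial lines lay under 1. The pseudogene SNAI1P1 was listed at 0.854 in H716 and 0.687 in H146, so SNAI1 in H716 is uncertain where reads were shared between the copies. SNAI2 (ENSG00000019549, chromosome 8), named Slug, ran the other way. It stood at 0 in H522, 0.138 in H661 and 4.64 in H146, against 0.104 in KLE, 0 in HEC59, 0.204 in COV318, 3.47 in H716 and 38.5 in 1321N1. The 3 lines with SNAI2 detected were 1321N1, H146 and H716, and the other 5 lay at 0.204 or under.

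TWIST1 (ENSG00000122691, chromosome 7), a mesoderm regulator, stood at 3.06 in H522, 0.5 in H661 and 1.77 in H146, against 2.32 in KLE, 0.0494 in HEC59, 5.52 in COV318, 0 in H716 and 18.9 in 1321N1. It was detected in 5 lines, and H716, with the second highest ZEB1, had it listed at 0. 1321N1 held the highest level of ZEB1, SNAI2 and TWIST1 and the second highest of ZEB2, and the lowest of SNAI1.

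ESRP1 (ENSG00000104413, chromosome 8) was the most widely expressed epithelial regulator, detected in 6 lines. It stood at 1.0 in H522, 1.53 in H661 and 61.6 in H146, against 3.37 in KLE, 9.89 in HEC59, 4.92 in COV318, 0.125 in H716 and 0.0825 in 1321N1. The lines with the most and least ESRP1, H146 and 1321N1, were those with the least and most ZEB1. Its paralog ESRP2 (ENSG00000103067, chromosome 16) was detected in 3 lines, at 10.5 in HEC59, 4.10 in COV318 and 2.58 in H146. Its other levels were 0.0402 in H522, 0.406 in H661, 0.0745 in KLE, 0.333 in H716 and 0.341 in 1321N1. HEC59 and COV318 held both paralogs at similar levels, H146 held far more ESRP1 than ESRP2, and KLE had ESRP1 with almost no ESRP2.

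GRHL2 (ENSG00000083307), a grainyhead factor that activates E-cadherin, was detected in HEC59 at 32.6 and in H146 at 2.81. It was listed at 0.165 in KLE and 0.00839 in COV318, and at 0 in H522, H661, H716 and 1321N1. Of the endometrial lines, HEC59 thus held the highest GRHL2 of all 8 lines and KLE did not reach 1. OVOL1 (ENSG00000172818, chromosome 11), a zinc finger factor that represses ZEB1, was detected in no line. Its highest level was 0.799 in HEC59, the other 7 lay at 0.0495 or under, and 3 of those were listed at 0. It was left out of the tests because it never reached an FPKM of 1, so 9 of the 10 genes were tested.

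ELF3 (ENSG00000163435, chromosome 1), an ETS factor of epithelial differentiation, stood at 0.115 in H522, 0.0646 in H661 and 1.5 in H146, against 4.01 in KLE, 14.2 in HEC59, 1.52 in COV318, 9.67 in H716 and 0 in 1321N1. It was the only epithelial regulator detected in H716. Its promoter is shown because the sequence table held it among the epithelial regulators and because repressors of the ZEB and SNAI families recognise the E-box CACCTG. The window runs from 250 bases before to 50 after the start site, on the plus strand at chr1:202010337-202010636 (RefSeq, GRCh38.p14), with the E-box in capitals.
ELF3 promoter: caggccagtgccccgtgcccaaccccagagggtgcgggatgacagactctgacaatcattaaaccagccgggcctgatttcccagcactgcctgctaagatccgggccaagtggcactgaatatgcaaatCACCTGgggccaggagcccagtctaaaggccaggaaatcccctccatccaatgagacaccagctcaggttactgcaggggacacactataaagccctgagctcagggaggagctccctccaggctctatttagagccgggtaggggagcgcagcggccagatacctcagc

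The only CACCTG on either strand began at position -120, counted from the start site. Of 35116 promoter windows of 300 bases, 20.6% held the motif on either strand, among them 2 of 7 listed for ZEB1 and not the 1 listed for ZEB2. The r of ELF3 over the 8 lines was -0.01 with ZEB1, -0.58 with ZEB2, -0.14 with SNAI1, -0.26 with SNAI2 and -0.65 with TWIST1.

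**Figure D1:**
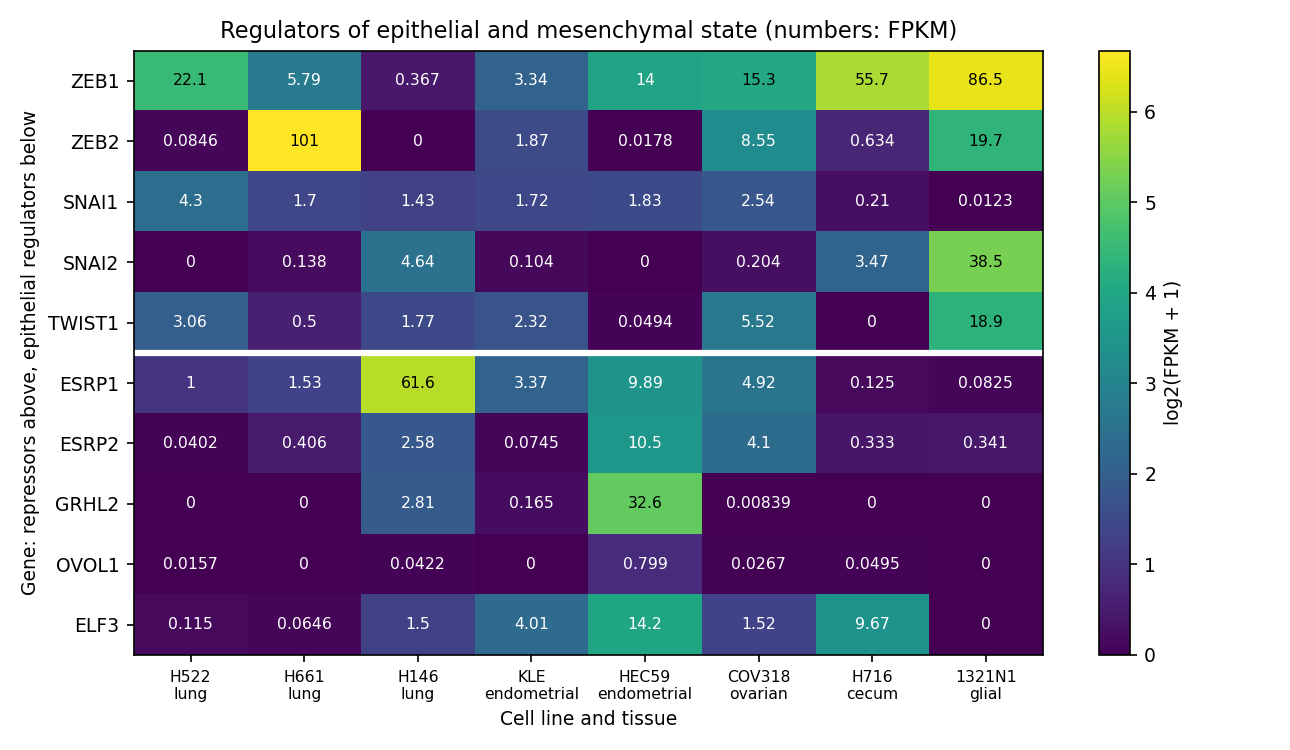
FPKM of the 10 regulators (rows) in the 8 lines (columns), with colour for log2(FPKM + 1). ZEB1 reached 86.5 in 1321N1 and 0.367 in H146, where ESRP1 was highest at 61.6, and OVOL1 stayed under 1 in every line.

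The 9 tested genes varied widely between lines. The SD of log2(FPKM + 1) over the lines had a median of 1.81 among them and 0.67 among all 15650 tested genes. The widest was ZEB2, with an SD of 2.46, and the narrowest was SNAI1, with 0.78. Members were then counted as high or low in a line when they lay more than 1 on the log2 scale above or below the median of the other 7 lines. Beside each count stands the share of all tested genes that did so in that line. SNAI2, ESRP2, GRHL2 and OVOL1 could not be counted low in any line, because the median of the other 7 lines was always under 1. OVOL1, with a log2 range of 0.85, could not be counted high either, and it is not among the tested genes. Low counts could thus fall only on the other members. 1321N1 had 4 of 10 high, against 15.3% of tested genes, all of them repressors, and 3 low, against 7.03%. HEC59 had 4 high, against 10.5%, all of them epithelial regulators, and 2 low, against 12.9%, both of them repressors. H146 had 4 high, against 13.3%, of which 3 were epithelial regulators, and 2 low, against 15.9%, both of them repressors.

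COV318 had 4 high, against 13.6%, and none low, against 6.11%, and its high genes were 2 of each class. H716 had 3 high, against 13.3%, and 3 low, against 11.4%. H661 had 1 high, ZEB2, against 11.2%, and 3 low, against 8.22%. H522 had none high, against 13.3%, and 3 low, against 9.27%. KLE had 1 high, against 13.4%, and 1 low, against 6.62%. The counts in KLE, with 1 of 10 each way, were near those shares.

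The mean log2 level of the 5 repressors was highest in 1321N1, at 4.09, followed by 2.42 in COV318 and 2.33 in H661, and lowest in HEC59, at 1.10, and H146, at 1.14. The mean of the 5 epithelial regulators was highest in HEC59, at 3.36, and H146, at 2.22, and lowest in 1321N1, at 0.11. H522 and H661 were low in epithelial regulators, at 0.25 and 0.38, with repressor means of 1.82 and 2.33. COV318 held both classes, with 4 repressors and 3 epithelial regulators detected. KLE had 4 repressors and 2 epithelial regulators detected, all of them at 4.01 or under.

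The strongest negative relations were those of 2 pairs. ESRP1 was lower where ZEB1 was higher, with r of -0.82 and rho of -0.81 over the 8 lines. Without H146 and 1321N1, the lines farthest from the median of ZEB1, r was -0.47, so the size of the relation rests on those lines. It lay between -0.89 and -0.63 with any 1 line left out, and it was -0.94 with values centred within the 2 read-step sets. SNAI2 was lower where SNAI1 was higher, with r of -0.83 and rho of -0.81, and r was -0.47 without 1321N1 and H716. These values describe 8 different tumours that share 1 processing and were sequenced at unequal depth, and they carry no test.

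**Figure D2:**
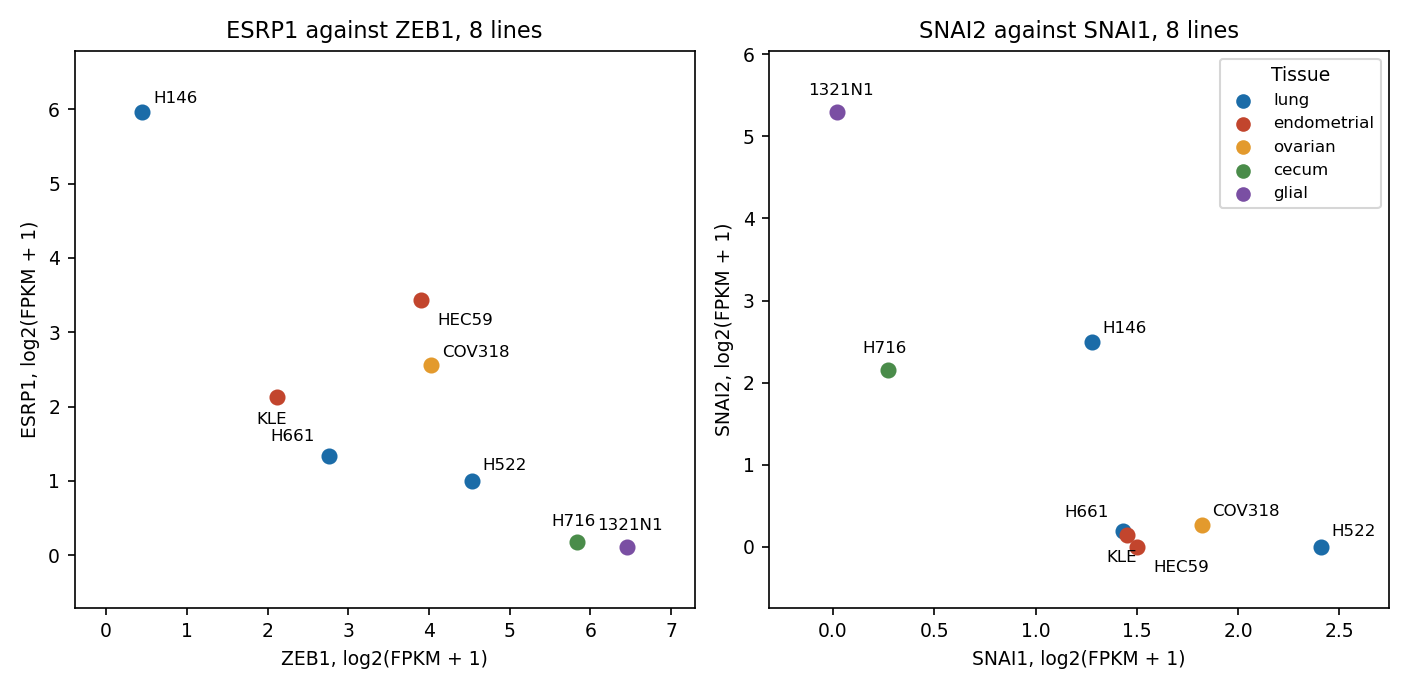
ESRP1 against ZEB1 (left) and SNAI2 against SNAI1 (right), each axis in log2(FPKM + 1), 1 point for each of the 8 lines, coloured by tissue. Both pairs run downward, with r of -0.82 on the left and -0.83 on the right, and r was -0.47 for each without its 2 end lines, H146 and 1321N1 on the left and 1321N1 and H716 on the right.

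Other pairs were weaker or rested on fewer lines. ESRP2 and GRHL2 had r of 0.82 and rho of 0.6, with r of 0.47 at the lowest with 1 line left out. Without HEC59 and COV318 r was 0.94. H146 was then the only line left with either gene detected, so that value rests on H146. ESRP1 and GRHL2 had r of 0.58 and rho of 0.89, with r between 0.56 and 0.91 with 1 line left out. ESRP1 and ESRP2 had r of 0.63 and rho of 0.64, with r between 0.6 and 0.79. ZEB1 and GRHL2, which repress each other's genes, had r of -0.24 and rho of -0.66, and r between -0.73 and -0.12 with 1 line left out, with ZEB1 at 14 in the line with the most GRHL2. TWIST1 and ELF3 had r of -0.65 and rho of -0.62, with r between -0.86 and -0.54. In all, 36 pairs of the 9 tested genes were computed, and 18 relations of those genes with the list means.

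Genes of the 2 states were followed in a list of 20 epithelial junction, keratin and surface genes and a list of 14 mesenchymal genes. Whether the regulators act on the listed genes in these lines was not tested. E-cadherin, CDH1, the classical repressed target, was listed at 0.178 in H522, 0.888 in H661 and 26.1 in H146, against 102 in KLE, 33.1 in HEC59, 0.588 in COV318, 0.0661 in H716 and 0.0286 in 1321N1. It was therefore detected in 3 lines, and those 3 differed in their regulators. H146 had ZEB1 under 1, HEC59 had GRHL2 at 32.6 beside ZEB1 at 14, and KLE had ZEB1 at 3.34, ZEB2 at 1.87 and almost no GRHL2. COV318 had ESRP1 at 4.92 and ESRP2 at 4.10 without detected CDH1.

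The mean log2 level of the epithelial list was 4.23 in KLE, 4.12 in HEC59, 3.58 in H146, 2.62 in COV318, 1.65 in H716, 1.38 in H522, 1.31 in H661 and 0.52 in 1321N1. KLE thus stood beside HEC59 in these genes, with 17 and 18 of 20 detected, although its epithelial regulators averaged 0.96 against 3.36 in HEC59. Keratins were high in KLE, with KRT18 at 1330 and KRT8 at 486. KLE also held the second highest mean of the mesenchymal list, at 3.57, with N-cadherin, CDH2, at 209 and fibronectin, FN1, at 956. H716 had 8 of 20 epithelial genes detected while its ELF3 was 9.67.

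Mesenchymal genes averaged 6.10 in 1321N1, with 13 of 14 detected, where fibroblast markers were also all detected. H661 followed KLE at 3.19, COV318 had 2.94, and H146 had the lowest mean, 1.11. Vimentin, VIM, the intermediate filament of mesenchymal cells, was at 2100 in 1321N1, 1370 in H661 and 0.219 in H146, and between 167 and 415 in the other 5 lines. H146, the only line with neither ZEB gene detected, was also the only line with VIM under 1. In H661, with ZEB2 at 101, fibroblast markers had a summed FPKM of 506, with 4 of 6 detected. Their part in the levels of the repressors was not tested.

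**Figure D3:**
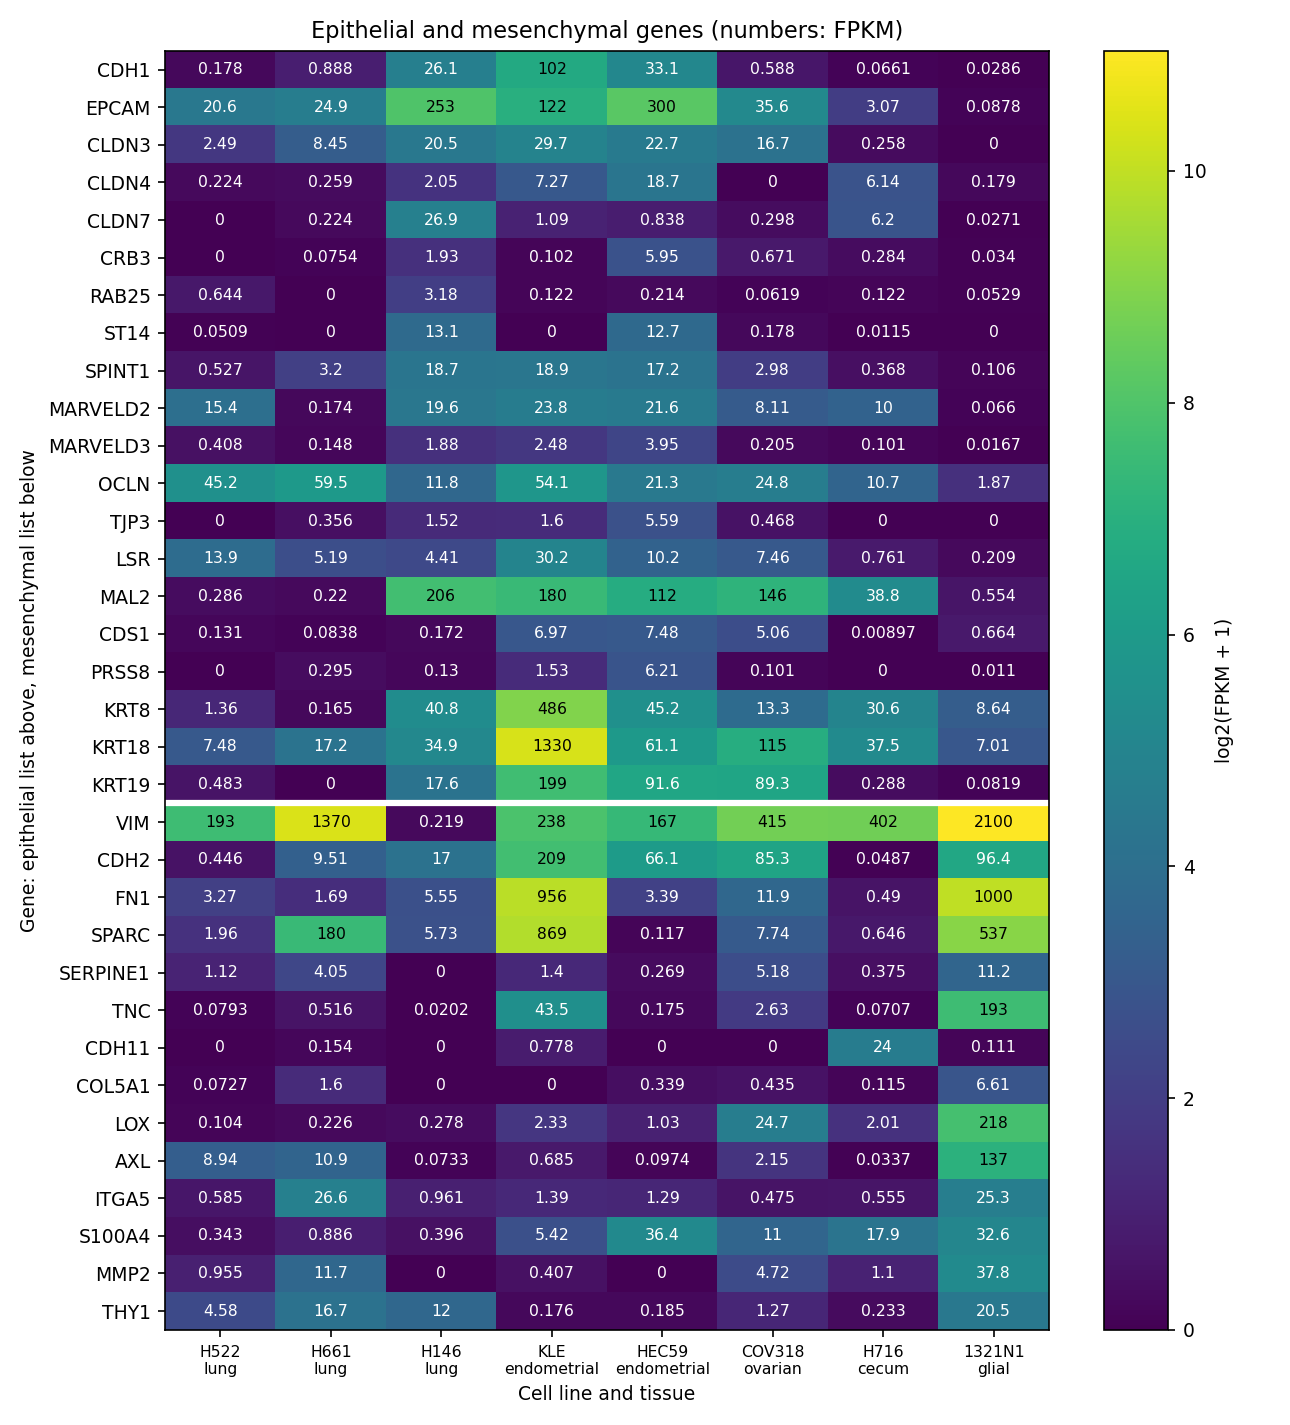
FPKM of the 20 epithelial genes (upper block) and 14 mesenchymal genes (lower block) in the 8 lines, with colour for log2(FPKM + 1). KLE, HEC59 and H146 fill most of the upper block, 1321N1 has CDH1 at 0.0286 and VIM at 2100, and H146 has VIM at 0.219.

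Over the 8 lines the mean of the epithelial list had r of -0.66 and rho of -0.64 with ZEB1, 0.73 and 0.74 with ESRP1, 0.64 and 0.79 with ELF3, and 0.62 and 0.86 with GRHL2. Without the 2 lines farthest from each gene's median, r was -0.46 for ZEB1, 0.75 for ESRP1, 0.96 for ELF3 and 0.88 for GRHL2. For GRHL2 the lines left out were HEC59 and H146, the only 2 with it detected. Its levels in the lines left were 0.165 or under, highest in KLE, so that r rests on levels near 0. The mean of the mesenchymal list had r of 0.67 and rho of 0.81 with ZEB2, and r of 0.76 without H661 and 1321N1. With TWIST1 it had r of 0.72 and rho of 0.4, and r of 0.14 without 1321N1 and H716. With ZEB1 it had r of 0.42, and r of -0.83 without H146 and 1321N1, so that relation turned with those lines. SNAI1 had r of 0.34 with the epithelial mean and -0.5 with the mesenchymal mean, and r of -0.57 and -0.2 without 1321N1 and H716, so the first of these also turned.

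**Figure D4:**
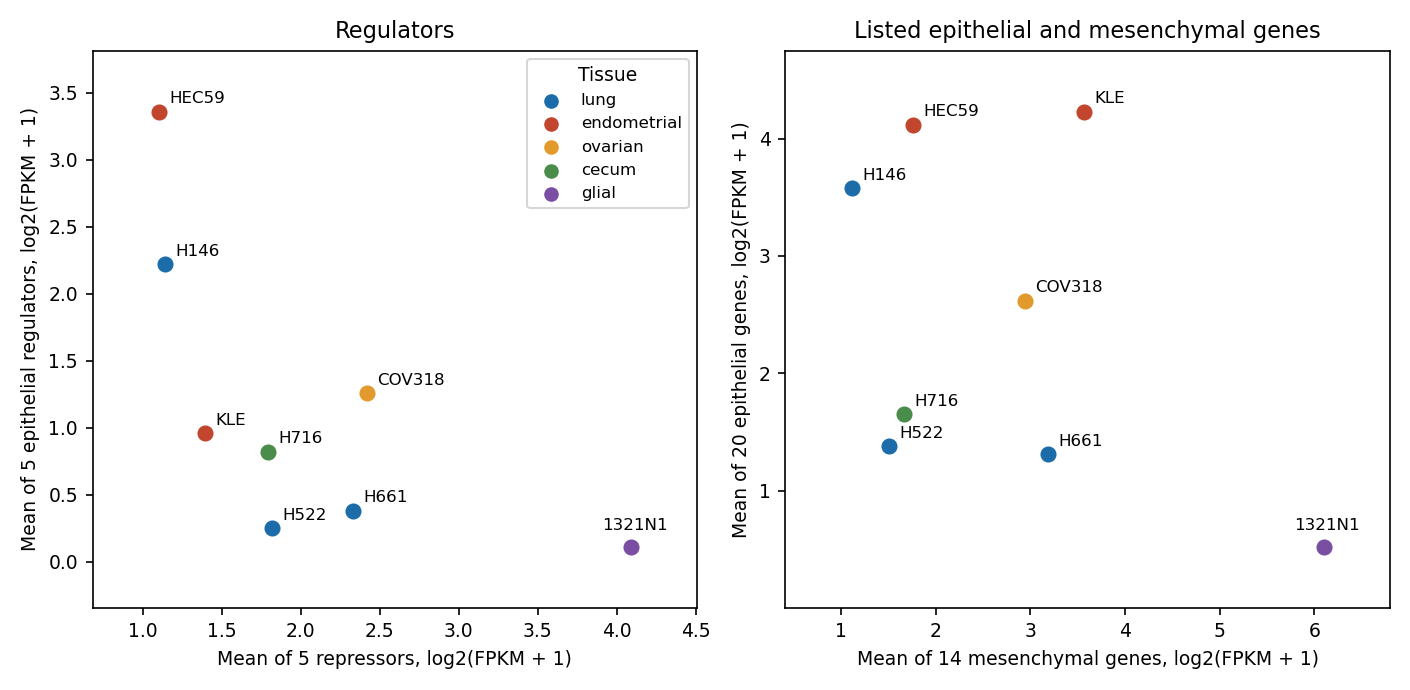
Mean log2(FPKM + 1) of the 5 epithelial regulators against that of the 5 repressors (left) and of the 20 epithelial against the 14 mesenchymal genes (right), 1 point a line, coloured by tissue. HEC59 and H146 are high and left in both panels, 1321N1 is low and right, and KLE, at 0.96 on the left vertical axis, lies at 4.23 on the right.

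Other factors of the same states differed from the members in where they were detected. Of 11 further epithelial transcription factors, KLF5 was detected in all 8 lines, at 3.01 to 143. EHF, a relative of ELF3, was at 50.2 in KLE, 16.0 in H146, 6.35 in COV318, 2.11 in HEC59 and 1.05 in H716, so KLE held more EHF than ELF3. OVOL2 was at 4.46 in H146, 2.34 in KLE and 2.16 in HEC59, the 3 lines with CDH1 detected. It was just under 1 in COV318, at 0.961, while OVOL1 was under 1 everywhere. GRHL1 reached 3.23 in HEC59 and 1.34 in H661, and GRHL3 and ELF5 were detected in no line.

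Of 10 further mesenchymal factors, PRRX1 was at 105 in 1321N1, 21.8 in H716 and 1.18 in H661 and under 1 elsewhere. TCF4, an E-protein that pairs with helix-loop-helix factors, was at 279 in H146, the line with the lowest ZEB1 and ZEB2, and at 58.5 in KLE and 39.4 in 1321N1. TCF3 was detected in all 8 lines, at 12.2 to 80.1. SNAI3, TWIST2, GSC and TBX2 were detected in no line.

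Of 6 splicing factors that act with or against ESRP proteins, RBFOX2 lay between 19.8 and 55.1 and PTBP1 between 76.3 and 254, and the other 4 varied more widely. MBNL1 lay between 20.1 in H146 and 151 in H716, and MBNL2 between 6.24 in H146 and 43.5 in H661. QKI, which promotes mesenchymal splicing, lay between 34.2 and 179 in 7 lines and at 0.987 in H716. RBM47 was at 39.7 in HEC59, 24.5 in H716 and 16.9 in KLE and under 0.1 in H522, H146 and 1321N1, so H146 had the highest ESRP1 and almost no RBM47. The 8 corepressors that ZEB and SNAI proteins recruit were each detected in every line. Among TGF-beta genes, which induce the repressors, the ligand TGFB2 was at 115 in H661, 45 in COV318 and 35.5 in 1321N1, the 3 lines with the highest ZEB2, and at 1.67 or under in the other 5. The receptor TGFBR2 was at 0.308 in H522 and 0.438 in H661 and above 3 in the other 6.

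Tissues were compared with limma on log2(FPKM + 1) over the 15650 genes detected in at least 2 lines, with Benjamini-Hochberg adjustment over all of them and a threshold of 0.05. Lines of a tissue are different tumours, and the other lines of a comparison pool several tissues. The p-values thus set each difference against a spread that holds differences between tumours and between tissues. No regulator passed in any comparison, and for each of the 9 the groups overlapped in all 3 comparisons. Among all tested genes 4.3% did not overlap for lung, 6.96% for endometrial and 5.35% for endometrial and ovarian lines.

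In lung against the other lines, 0 of 9 regulators passed, against 0.0256% of tested genes, and none had an unadjusted p under 0.05, against 5.94%. The genes called in the whole table were CDH7, GRIA2 and SNX18P7, which were higher (0.0192% of tested genes), and CXXC5, which was lower (0.00639%). ZEB1 averaged 2.58 ± 2.05 in lung lines and 4.46 ± 1.72 in the other lines (log2, SD, n = 3 and 5), a difference of -1.88 (SE 1.10, limma adjusted p = 0.863). The ZEB1 difference was -0.82 without H146 and -2.86 without H522. ELF3 averaged 0.52 ± 0.69 in lung lines and 2.20 ± 1.59 in the others, a difference of -1.68 (SE 0.849, limma adjusted p = 0.840). Within the first read-step set the lung minus other difference of ELF3 was -2.75 and that of ZEB1 was -0.32, and within the second they were -0.43 and -4.34. The other 7 differences lay between -0.68 and 1.09. Within the lung lines, H146 was above H522 and H661 in ESRP1, ESRP2, GRHL2 and ELF3. ESRP1 was at 61.6 against 1.0 and 1.53, and GRHL2 at 2.81 against 0 and 0. OVOL1 was under an FPKM of 1 in every lung line.

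In endometrial against the other lines, 0 of 9 passed, against 0.00639% of tested genes, and 1 had an unadjusted p under 0.05, against 4.82%. The only gene called in the whole table was AC002066.2, which was listed above 100000 FPKM in KLE and HEC59 and at 0 in the other 6 lines. Of all listed values, 3 lay above 100000, and the third was AC055723.1 in 1321N1. ELF3 averaged 3.13 ± 1.13 in endometrial lines and 1.05 ± 1.31 in the others (log2, SD, n = 2 and 6), a difference of 2.07 (SE 0.909, unadjusted p = 0.0473 and adjusted p = 0.954, limma). It was highest in HEC59, and in KLE it was below H716, and the difference was 1.27 without HEC59. GRHL2 averaged 2.65 ± 3.43 in endometrial lines and 0.32 ± 0.79 in the others, a difference of 2.32 (SE 1.08, limma adjusted p = 0.954), with 32.6 FPKM in HEC59 and 0.165 in KLE. Without KLE the difference was 4.75. Within the first read-step set, KLE minus the others gave 1.1 for ELF3 and 0.22 for GRHL2, and within the second, HEC59 minus the others gave 3.04 and 4.42. The other 7 differences lay between -1.75 for ZEB2 and 0.93 for ESRP1.

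In endometrial and ovarian against the other lines, 0 of 9 passed, against 0.198% of tested genes (0.179% higher and 0.0192% lower), and none had an unadjusted p under 0.05, against 7.3%. The comparison shares both endometrial lines with the one before. SNAI2 averaged 0.14 ± 0.13 in endometrial and ovarian lines and 2.03 ± 2.15 in the others (log2, SD, n = 3 and 5), a difference of -1.89 (SE 1.06, limma adjusted p = 0.768). H522 and H661 among the other lines had levels as low, and the difference was -1.07 without 1321N1. ESRP2 averaged 1.99 ± 1.74 in endometrial and ovarian lines and 0.65 ± 0.69 in the others, a difference of 1.35 (SE 0.730, limma adjusted p = 0.754), which was 0.58 without HEC59 and 2.29 without KLE. ELF3 differed by 1.53 (SE 0.875, limma adjusted p = 0.771), and by 0.83 without HEC59. Within the read-step sets ESRP2 differed by -0.22 in the first and 1.81 in the second.

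**Figure D5:**
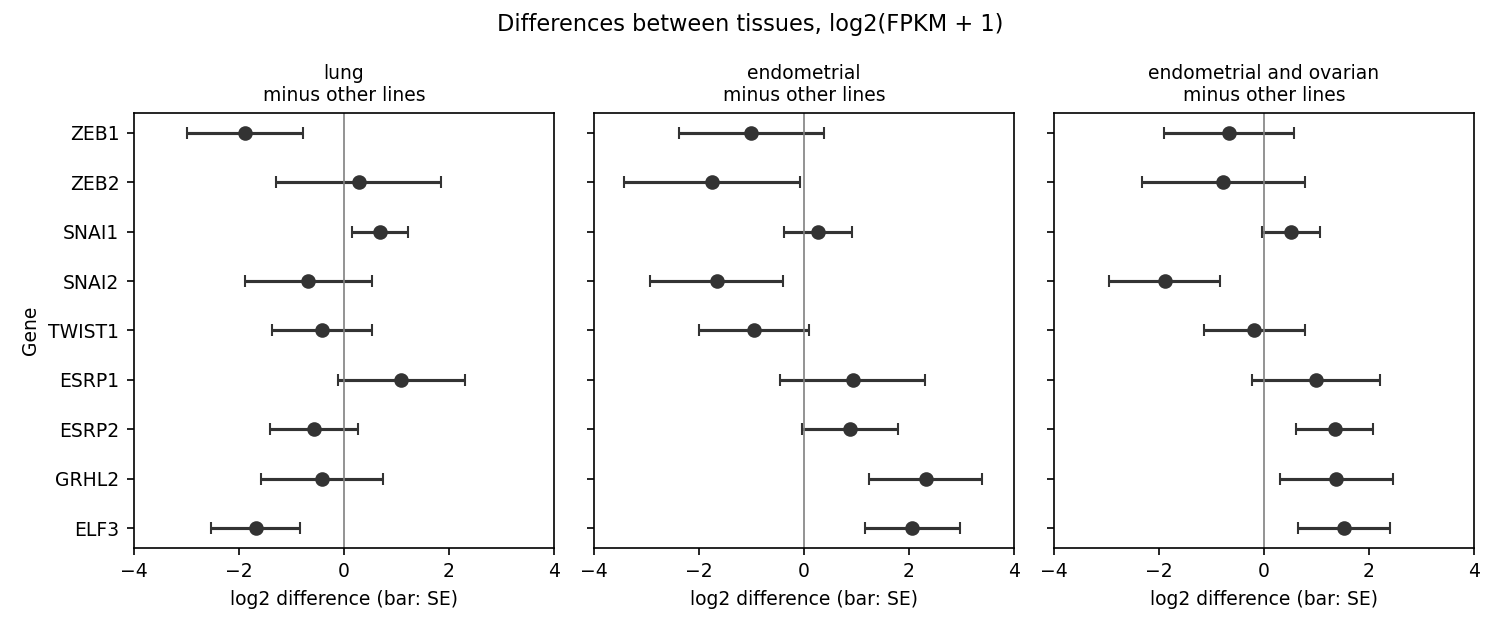
Difference in mean log2(FPKM + 1) of the 9 tested regulators for lung (left), endometrial (middle) and endometrial and ovarian lines (right), each minus the other lines, with SE from limma as bars. ZEB1 and ELF3 lie lowest in the left panel, at -1.88 and -1.68, GRHL2 and ELF3 highest in the middle, at 2.32 and 2.07, and none passed the threshold.

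The lists gave 1 call. Of 20 epithelial genes, 19 were tested, and in endometrial lines 18 had a higher mean, 10 had an unadjusted p under 0.05 and 10 did not overlap, against 6.96% of all tested genes without overlap, but limma called 0. Their median difference was 2.39, against -0.11 over all tested genes. KRT19, CDH1 and KRT8 differed there by 5.13, 4.77 and 4.07, with limma adjusted p of 0.822, 0.583 and 0.852. In endometrial and ovarian lines 18 of 19 had a higher mean, 6 had an unadjusted p under 0.05, against 7.3% of all tested genes, and 3 did not overlap, against 5.35%. Their median difference was 1.83, against -0.05 over all genes, with 4.31 for MAL2 and 3.59 for KRT18 (limma adjusted p of 0.584 and 0.339). CDS1, an enzyme of phospholipid synthesis, rose, with 6.97 in KLE, 7.48 in HEC59 and 5.06 in COV318, against 0.664 or under in the other 5 (difference 2.64, SE 0.342, limma adjusted p = 0.0186). Its adjusted p lay between 0.0249 and 0.0814 with 1 line left out and lost the threshold without H522, H661, KLE or H716, at a pseudocount of 0.1 (0.089), without a filter (0.114) and with the read-step set as a term (0.0656).

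KRT19 differed there by 5.84 (SE 0.920, limma adjusted p = 0.0507). Its adjusted p was 0.00178 without H146 and between 0.0808 and 0.172 without any other line, 0.0367 at a pseudocount of 5, and between 0.0515 and 0.204 under the other settings. In lung lines 7 of 19 epithelial genes had a higher mean, 1 had an unadjusted p under 0.05 and limma called 0, with a median of -0.30 against -0.02 over all genes. Of the 13 tested mesenchymal genes limma called 0 in each comparison, with 2, 1 and 2 at an unadjusted p under 0.05 in lung, endometrial, and endometrial and ovarian lines, against 5.94%, 4.82% and 7.3% of all tested genes. The last 2 were CDH2 and THY1, with differences of 3.78 and -2.46. The calcium-binding S100A4 was lower in all 3 lung lines than in any other line, with a difference of -3.55 (SE 0.597, limma adjusted p = 0.105). LOX and THY1 were the other mesenchymal genes without overlap, with differences of -3.10 for LOX in lung lines and -2.47 for THY1 in endometrial lines and limma adjusted p of 0.821 and 0.954. So 2 of 13 did not overlap for lung lines, against 4.3% of all tested genes, 1 for endometrial lines, against 6.96%, and 0 for endometrial and ovarian lines, against 5.35%.

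In the other 5 lists limma also called 0 genes in each comparison. The counts of unadjusted p under 0.05 that follow stand against the same shares of all tested genes, 5.94%, 4.82% and 7.3%. Of 9 tested epithelial transcription factors, 0, 0 and 1 had an unadjusted p under 0.05 in lung, endometrial, and endometrial and ovarian lines, and the last was KLF5, with a difference of 2.32. Of 5 tested mesenchymal factors the counts were 0, 0 and 2, with PRRX2 at 2.20 and FOXC1 at 1.65. Of 6 splicing factors they were 1, 1 and 0, with MBNL1 at -1.46 in lung and RBM47 at 3.05 in endometrial lines. Of 8 corepressors they were 1, 1 and 0, with HDAC2 at 1.16 in lung and EZH2 at -1.15 in endometrial lines. Of 9 TGF-beta genes they were 1, 0 and 2, with TGFBR2 at -2.67 in lung and at 2.10 in endometrial and ovarian lines, where TGFB1 was at -1.76. The genes of these lists without overlap were HDAC2 and TGFBR2 in lung lines and EZH2 in endometrial lines. In endometrial and ovarian lines they were PRRX2 and SIN3A, the latter at -0.70. The shares of all tested genes without overlap were 4.3%, 6.96% and 5.35%, in the same order.

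For each tested regulator the genes with the most similar pattern over the 8 lines were found among 12550 tested protein-coding genes, by Pearson's r of log2 levels. With 8 points and that many genes a high r is common, and the number of genes above 0.95 was 16 for GRHL2, 10 for SNAI2, 6 for ESRP2, 5 each for ESRP1 and SNAI1, 3 for ZEB1, 2 each for ZEB2 and TWIST1 and 0 for ELF3. ZEB2 was most like PCDH18 (r = 0.976), PLAUR (0.951) and KLF7 (0.947), and PCDH18 kept r of 1.0 without H661 and 1321N1. SNAI2 was most like SLITRK1 (0.999), PDGFRA (0.987) and ARHGAP22 (0.976), with r between 0.83 and 0.99 without its far lines. ESRP1 was most like PAK6 (0.988), GPRC5B (0.975) and TMEM178A (0.973). GRHL2 was most like SLC16A12 (0.992), FAM150B (0.987) and SALL1 (0.987), whose r lay between -0.24 and 0.03 without HEC59 and H146. ZEB1 was most like RAB14, SNU13 and SPTBN1, SNAI1 like STRBP, MRS2 and DNAH14, and TWIST1 like MRPS16, BNIP1 and C1S. ESRP2 was most like STEAP1B, FAM71E1 and TRAPPC6A, and ELF3 like FUK, TLDC2 and RP1-170O19.20.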

How the data were processed

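Per the file headers, the authors deposited 1 table of FPKM values per line, with 58202 Ensembl identifiers and symbols. The build was GRCh37, and CASAVA 1.4, TopHat2 2.0.8 and SAMtools 1.0 were among the tools, per the submitters' processing notes. The FPKM program, its annotation and strand use were not given in the sources used here. FPKM holds no read totals, so no counting interval is given. The 15650 genes that reached an FPKM of 1 in 2 lines or more were tested on log2(FPKM + 1). The test was limma 3.58.1 in R 4.3.3 (lmFit, eBayes with trend, two-sided), with groups by labelled tissue. The fit was tried on simulated data for the lung comparison only. The simulated spreads were capped below the median SD of the regulators, so that trial does not cover spreads as wide as theirs. The members and lists were chosen with earlier results of these data known. Named are all members, listed genes past the threshold, those of the 3 listed genes with the largest differences that had an unadjusted p under 0.05 or no overlap (CDH1, VIM and other listed genes are also given by level, chosen after their values were seen) and, for each member, the 3 genes with the highest r. Gene types came from GENCODE 29. Alternatives were other pseudocounts, filters, scalings, no trend, the read-step set as a term and each line left out.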

Additional observations from a re-analysis of the deposited data

Results flagged for a closer look

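The levels of 3 genes lay far from the other 7 lines by Dixon's criterion, the gap to the nearest line over the whole range on the log2 scale. SNAI2 in 1321N1 was 38.5 FPKM, against 4.64 in H146, the next line. GRHL2 in HEC59 was 32.6 FPKM, against 2.81 in H146. OVOL1 in HEC59 was 0.799 FPKM, against 0.0495 in H716, and stayed under 1. All 8 lines were taken as 1 group although they come from 5 tissues. The limit flags about 1 in 20 groups of normally distributed values, and 10 genes were examined. GRHL2 was listed at 0 in 4 lines, OVOL1 in 3 and SNAI2 in 2. Levels at or near 0 in many lines are not so distributed. That rate therefore does not apply to these genes, and the number of flags is not weighed against it. Fibroblast markers were all detected in 1321N1 and GFAP was 3.10 there, and their part in the level of SNAI2 was not tested.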

How the results depend on the processing

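No regulator passed the threshold in any comparison under any alternative or with any line left out; leaving out KLE or HEC59 leaves 1 endometrial line, assumed to vary like the other groups, and the lowest endometrial value is GRHL2 in HEC59 alone, without KLE. The adjusted p lay between 0.673 and 1.0 for lung, 0.146 and 0.999 for endometrial, and 0.281 and 1.0 for endometrial and ovarian lines. Some differences changed sign. In lung lines a pseudocount of 0.1 gave -0.68 for ZEB2 (0.28 as reported) and 0.22 for TWIST1 (-0.41), and the read-step set as a term gave 0.04 for GRHL2 (-0.42). With 1 line left out, lung differences ranged from -1.92 to 1.42 for ZEB2 (lowest without H661, and below 0 also without HEC59 and H716), -1.48 to 0.25 for SNAI2 and -0.85 to 0.23 for TWIST1 (highest without 1321N1), and -0.51 to 1.97 for ESRP1 (lowest without H146). ESRP2 in endometrial lines ranged from -0.83 without HEC59 to 2.6. In endometrial and ovarian lines ZEB2 ranged from -1.6 to 0.3 (highest without H661, above 0 also without HEC59) and TWIST1 from -0.78 to 0.54 (highest without HEC59, above 0 also without 1321N1). The cause was not tested. Without HEC59 or H146, GRHL2 was detected in 1 line and was not tested. A common sum over nuclear genes moved the median lung difference of all genes to 0.13, against -0.02 as deposited, and changed no call among the regulators. Genes called in all ranged from 1 to 11 for lung, 1 to 20 for endometrial and 8 to 32 for endometrial and ovarian lines over the settings, and from 1 to 16, 1 to 30 and 16 to 89 with 1 line left out. No paired analysis was possible because the lines are different tumours with 1 library each. Depth is unknown, so a level near 0 is not shown to be absence.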
